A study of Mus musculus with 6 samples.

Results

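Genes of cell junctions and keratin filaments were compared between mouse fat 7 days after grafting and fat before grafting. The members were chosen by name, as the protein coding genes of the deposited table whose symbols are those of a cadherin, a protocadherin, an alpha or delta catenin, a nectin, a tight junction protein, a connexin or pannexin, a desmosomal protein or a keratin. This name pattern took 78 of the 12163 listed genes, of which 9949 are protein coding. The members were 9 cadherins, 17 protocadherins, 7 catenins and nectins, 18 tight junction genes, 7 gap junction genes, 8 desmosome genes and 8 keratins. A further 4 genes (Dscam, Dscaml1, Dscc1 and Dscr3) were taken by their spelling alone and code for no desmosomal protein. These families hold 239 genes in the GENCODE M21 annotation, of which 74 were listed, and the rest were not analysed here.

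The grafts were 3 libraries of fat collected on day 7 after grafting, and the fat before grafting was another 3 libraries. Both groups were total RNA of fat tissue from wild-type C57BL/6 mice, and the submitters state biological replicates. The depot, the age and sex of the mice, the recipient site and whether host tissue was collected with the grafts are details not given in the sources used here. A graft library can therefore hold RNA of cells that came from the recipient, and in such bulk samples fewer cells of a type and less RNA per cell cannot be told apart.

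Adherens junctions join neighbouring cells through cadherins and nectins, which catenins and afadin link to actin. Desmosomes use a separate set of cadherins, the desmogleins and desmocollins, which plakoglobin and the plakophilins link to intermediate filaments, in epithelia to keratins. Tight junctions seal the space between cells with claudins and junctional adhesion molecules on a scaffold of zonula occludens proteins, and gap junctions are channels of connexins that connect the cytoplasm of neighbours. In fat these genes are best known from the cells around the adipocytes: endothelium, nerve sheath, fibroblasts and the mesothelium that covers visceral depots.

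The promoters of 3 members are shown because these genes stand for the main patterns below: Gja1 and Gjb5 were connexins higher in grafts, and Jup was lower together with the other desmosome genes. Each window is the 250 bases before the gene's start in RefSeq (GRCm38.p6), read 5′ to 3′ on the gene's strand, with capitals at matches to TGANTCA (the AP-1 motif), CAGGTG (1 form of the E-box) or TATAAA on either strand.
Gja1, chr10:56377050-56377299, plus strand: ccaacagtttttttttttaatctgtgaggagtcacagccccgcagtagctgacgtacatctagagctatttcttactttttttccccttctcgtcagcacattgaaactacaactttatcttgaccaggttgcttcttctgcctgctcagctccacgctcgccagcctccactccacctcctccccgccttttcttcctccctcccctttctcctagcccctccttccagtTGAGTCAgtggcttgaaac
Gjb5, chr4:127358165-127358414, minus strand: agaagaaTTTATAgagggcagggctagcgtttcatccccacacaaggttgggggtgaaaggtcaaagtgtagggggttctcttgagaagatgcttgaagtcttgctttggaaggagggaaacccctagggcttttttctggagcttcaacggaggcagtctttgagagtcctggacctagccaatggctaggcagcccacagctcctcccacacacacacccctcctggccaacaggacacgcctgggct
Jup, chr11:100397791-100398040, minus strand: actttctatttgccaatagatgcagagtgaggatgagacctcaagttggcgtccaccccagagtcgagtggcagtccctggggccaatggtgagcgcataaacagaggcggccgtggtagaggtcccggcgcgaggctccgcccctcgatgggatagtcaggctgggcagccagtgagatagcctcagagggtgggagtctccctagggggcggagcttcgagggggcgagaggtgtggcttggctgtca
The capitals in Gja1 are TGANTCA, 19 bases before the start, those in Gjb5 are TATAAA on the other strand, 243 bases before it, and the Jup window holds none of the 3 motifs. No matches overlapped. Promoters were found for 41 of the 78 members, in 51 windows. TGANTCA was in 2 of these 51 windows (3.92%) and in 6.75% of all 32817 windows of that length. CAGGTG was in 7 member windows (13.7%), against 17.2% of all windows, and TATAAA also in 7 (13.7%), against 12.4% of all. A match describes the letters in a window and says nothing about binding.

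The values are normalized counts: gene reads divided by 1 size factor per library. The listed genes held 13027776 to 15924559 reads per library. Its genes had been picked by their difference, since 99.2% of its tested genes had an unadjusted p under 0.05, so a share of members that changed can be read only against the share of all listed genes. Changes were tested with limma on log2(value + 1), for genes with at least 10 normalized counts in at least 3 libraries, and a gene is called higher or lower in grafts where its adjusted p was under 0.05. Log2 fold changes set grafts over fat before grafting and, with the 1 added, understate the change of genes near 0. The marker lists of other cells moved widely between the groups. All 10 adipocyte markers fell (summed normalized counts 6424 to 25846 in grafts, 324086 to 486496 before grafting, with graft replicate 1 highest among grafts), all 8 macrophage markers rose (188818 to 198262 in grafts, 21072 to 23838 before), all 6 lymphocyte markers fell (185 to 464 in grafts, 4786 to 9609 before) and all 7 dendritic cell markers fell (362 to 825 in grafts, 2107 to 3016 before). The part of these shifts in the results below was not tested.

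Of the 78 members, 66 passed the filter on low values, 18 of them through the values of 1 group only, which favours genes that differ. Of these 66, 24 were higher and 26 lower in grafts, or 75.8% in all. The background was 80.4% of the 10854 listed genes tested (41.2% higher and 39.2% lower), so the members were called about as often as listed genes in general. The 3 grafts all lay above or all below the 3 libraries before grafting for 75 of the 78 members (96.2%), and for 97% of listed genes. They lay above for 36 members (46.2%, against 48% of listed genes) and below for 39 (50%, against 49.1%). At the median the 66 tested members had a log2 fold change of -0.01, against 0.28 for all tested genes. The families divided sharply around this median, as the plot of log2 fold changes by family shows. All 7 tested desmosome genes fell, 9 of 15 tight junction genes fell and 1 rose, and 5 of 6 gap junction genes rose and 1 fell. Calls in the other families went both ways. With every library rescaled so that the median ribosomal protein gene did not change, the median of all genes moved to -0.46, and the members split into 11 higher and 33 lower. Rescaled to equal totals or equal upper quartiles they split into 18 higher with 29 or 31 lower. The ribosomal scaling used the 76 ribosomal protein genes listed and tested, whose median log2 fold change was 0.76 as deposited. Listed genes had been picked by their difference, so ribosomal protein genes that did not change may be missing from it. Without graft replicate 2, 14 members were higher and 26 lower.

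**Figure D1:**
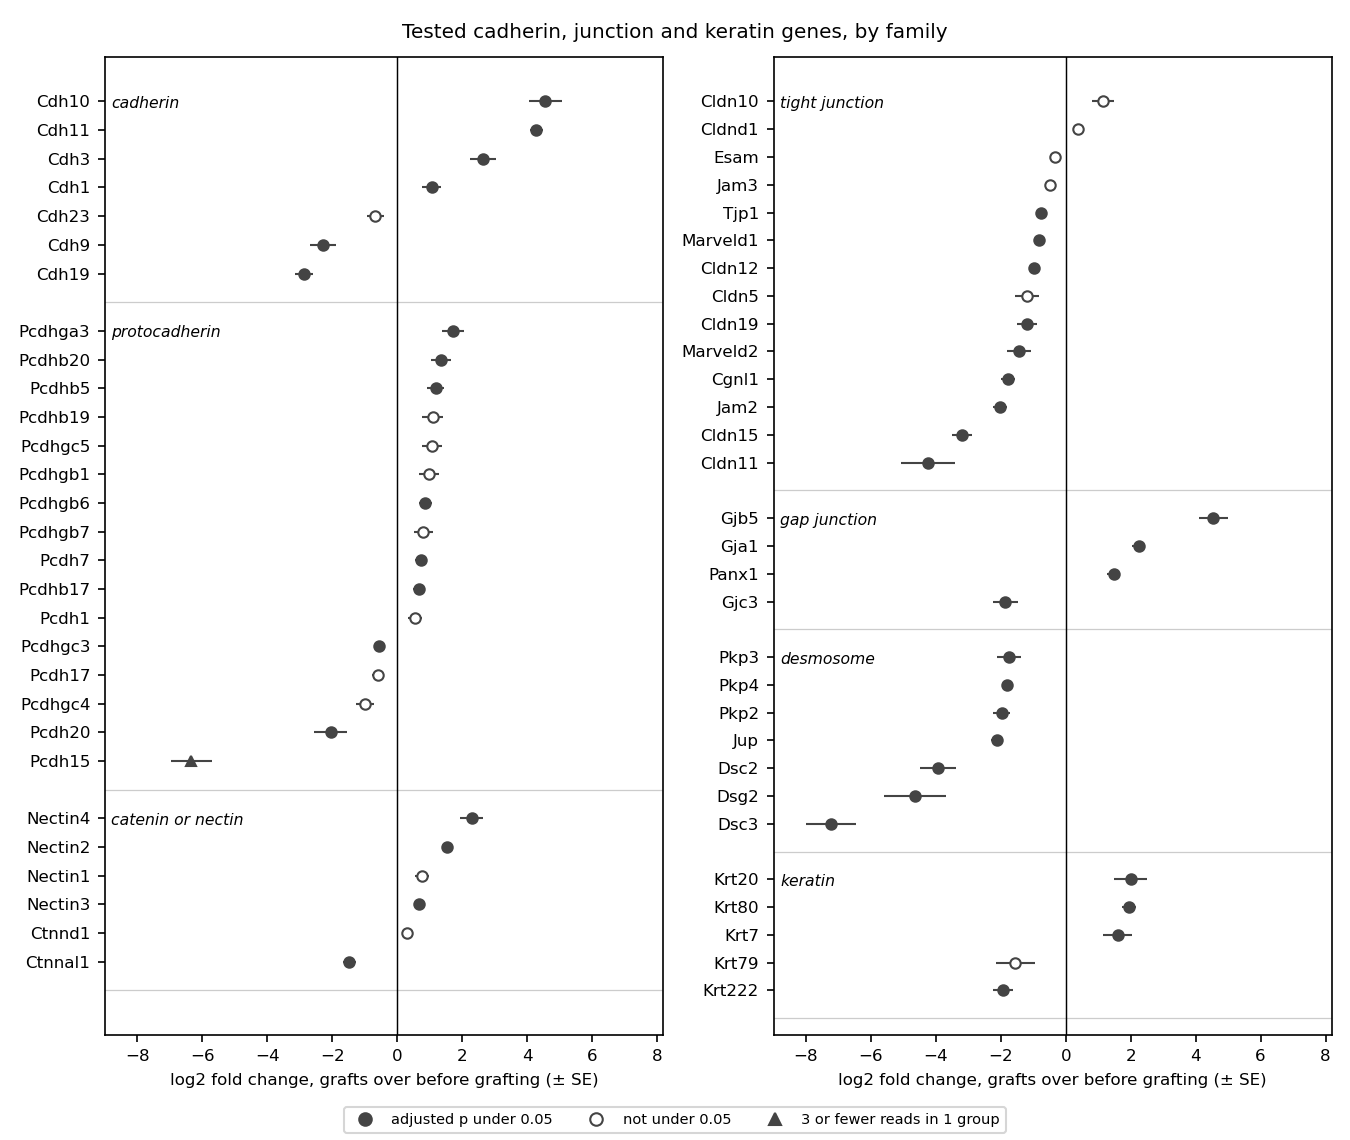
Log2 fold change of normalized counts, grafts over before grafting, with its SE, for 59 tested members of the families. Filled symbols had an adjusted p under 0.05, and triangles mark genes with 3 or fewer reads in 1 group, whose fitted value is no bound. All 7 desmosome genes lie left of 0, and Gja1, Gjb5 and Panx1 lie right of it; with ribosomal protein genes set to no change, Cldnd1, Nectin3, Ctnnd1, Pcdh1, Pcdh7 and Pcdhb17 would cross 0 to the left.

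Gap junction genes had the highest median log2 fold change of the families, 3.14, or 2.32 with genes at 0 reads in 1 group set to a floor of 3 reads in each library. Of 6 tested, 5 were higher and 1 lower, against 41.2% higher among all listed genes tested. Gja1 and Panx1 passed the filter on low values in both groups. The others, Gjb5 and Gjc3 among them, passed it only through the group where they were higher. That favours large changes in the count and in the median. Gja1, the most widely expressed connexin (chr10:56377330-56402513, GRCm38), had 5115, 5957 and 4398 normalized counts in the 3 grafts, against 808.6, 1220 and 1280 before grafting. Its means were 5157 ± 781 in grafts and 1103 ± 256 before grafting (SD, n = 3 each), a ratio of 4.68 and a change of 2.24 ± 0.19 on the log2 scale (SE; adjusted p = 9.02e-05). Every graft was above every library before grafting, and the lowest graft was more than 3 times as high as the highest of those.

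Gjb5 codes for a beta connexin known from skin (chr4:127354809-127358181, minus strand), and its promoter is printed above. It had 119.5, 153.2 and 122.7 normalized counts in grafts and 8.9, 5.1 and 2.0 before grafting, 4.55 ± 0.45 on the log2 scale (adjusted p = 0.00019). The lowest graft lay far above the highest library before grafting, with 401 reads in all grafts and 16 in all libraries before grafting. Gjb2, the beta connexin most studied in skin, is outside the table and not analysed here.

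Panx1, a pannexin that forms ATP-releasing channels in a single membrane rather than junctions between cells, had 522.2, 604.2 and 593.5 normalized counts in grafts, against 274.1, 173.2 and 183.9 before grafting. Its log2 fold change was 1.47 ± 0.19 (adjusted p = 0.000793). Gjc3, a connexin known from myelinating glia, went the other way, with 7.0, 13.6 and 7.9 normalized counts in grafts and 32.5, 27.4 and 51.1 before grafting (log2 fold change -1.86 ± 0.39, adjusted p = 0.0123). Without replicate 3 before grafting that call was lost (adjusted p = 0.0677; 0.0111 to 0.0434 without 1 of the others).

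Per kilobase of the deposited gene length, Gja1 made up 77.1% ± 1.54 of the signal of the listed connexins in grafts and 84.6% ± 6.06 before grafting (SD, n = 3 each). Gjb5 made up 11.8% ± 0.942 in grafts and 2.69% ± 2.18 before grafting. Gja1 was thus the leading listed connexin in both groups, with a larger share held by Gjb5 in every graft than before grafting. The vascular connexin genes Gja4, Gja5 and Gjc1 are outside the table and not analysed here.

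**Figure D2:**
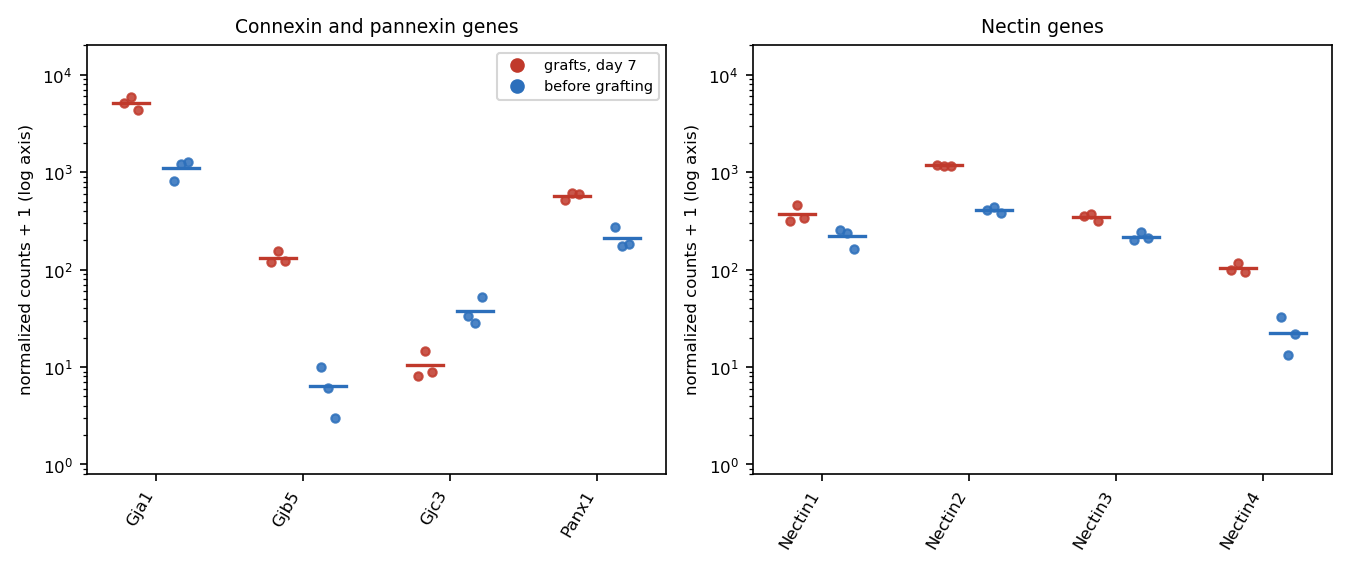
Normalized counts plus 1 on a log axis for 4 gap junction genes (left) and nectin genes (right), with 1 point per library and a bar at the mean of 3 libraries. Gja1, Gjb5 and Panx1 lie higher and Gjc3 lower in all 3 grafts, and each nectin lies higher in all 3 grafts; with ribosomal protein genes set to no change, the log2 fold change of Nectin3 would be -0.07.

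Nectins, immunoglobulin-type adhesion molecules that bind afadin, were higher in grafts for 3 of 4 genes, against 41.2% of all listed genes tested. Nectin3 changed sign with ribosomal protein genes set to no change (log2 fold change -0.07). Nectin2 (chr7:19716644-19750483) had 1199, 1161 and 1155 normalized counts in grafts, against 406.3, 437.6 and 382.6 before grafting. Its groups were tight and far apart, at 1172 ± 23.9 in grafts and 409 ± 27.6 before grafting (SD, n = 3 each; log2 fold change 1.52 ± 0.10, adjusted p = 2.03e-05). Nectin4, best known from embryonic and epithelial tissue, had 97.4, 115.4 and 93.0 normalized counts in grafts and 31.6, 12.2 and 20.7 before grafting (log2 fold change 2.29 ± 0.35, adjusted p = 0.00227). Nectin3 had 350.5, 374.3 and 315.6 in grafts and 201.2, 243.1 and 208.5 before grafting, a smaller change of 0.67 ± 0.14 on the log2 scale (adjusted p = 0.0121). It lost its call without graft replicate 2 or replicate 3 before grafting, where the adjusted p reached 0.0605. Nectin1 had 313.3, 460.6 and 335.3 in grafts and 256.4, 236.0 and 161.3 before grafting, with no overlap but an adjusted p of 0.0539. It passed without graft replicate 1 (adjusted p = 0.0492) and ranged up to 0.195 with another library left out. Nectin2 took 62.4% ± 1.56 of the per-kilobase signal of the 7 listed catenins and nectins in grafts, and 43.2% ± 0.497 before grafting.

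Among the catenins, Ctnnal1, an alpha-catenin relative, fell to 106.5, 76.6 and 113.8 normalized counts in grafts, against 241.6, 270.5 and 307.9 before grafting (log2 fold change -1.47 ± 0.20, adjusted p = 0.00122). Ctnnd1, the p120 catenin that keeps cadherins at the surface, had 525.3, 457.7 and 522.3 normalized counts in grafts and 396.4, 442.7 and 371.8 before grafting. The groups did not overlap but the change of 0.31 ± 0.12 did not pass (adjusted p = 0.169), it would be -0.43 with ribosomal protein genes set to no change, and 61.2% of the gene's exonic bases are shared with another annotated gene on the same strand. Ctnna3, the alpha catenin of heart muscle, was below the filter at 1.0, 3.9 and 5.9 normalized counts in grafts and 8.9, 16.2 and 12.8 before grafting. Ctnna1, the main alpha catenin of most tissues, is outside the table and not analysed here.

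The make-up of the 9 listed cadherins differed between the groups. Listed genes had been picked by their difference, so these shares do not give the make-up of all cadherins in the tissue. Cdh11, the cadherin of mesenchymal cells (chr8:102632095-102785642), had 1803, 2749 and 2943 normalized counts in grafts, against 121.3, 105.4 and 150.5 before grafting. The means were 2498 ± 610.1 in grafts and 126 ± 22.9 before grafting (SD, n = 3 each), a ratio of 19.9 and a change of 4.29 ± 0.21 on the log2 scale (adjusted p = 6.33e-06). Cdh19, a cadherin known from nerve sheath cells and their precursors (chr1:110888326-110977584), went the other way, to 59.3, 46.5 and 29.7 normalized counts in grafts, against 274.1, 332.3 and 375.7 before grafting (log2 fold change -2.87 ± 0.27, adjusted p = 0.000154). Per kilobase, Cdh11 held 83.1%, 83.9% and 86.0% of the signal of the 9 listed cadherins in the 3 grafts, and 12%, 9.53% and 12.5% before grafting. Cdh19 held 5.68%, 2.96% and 1.80% in grafts, and 56.3%, 62.5% and 64.8% before grafting. The leading listed cadherin was therefore Cdh11 in every graft and Cdh19 in every library before grafting. Among fibroblast markers, 8 of 10 rose and 1 fell (summed normalized counts 893171 to 1464639 in grafts, 150953 to 193710 before), and all 9 Schwann cell markers fell (4782 to 6236 in grafts, 8816 to 10346 before). Their part in the Cdh11 and Cdh19 results was not tested.

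**Figure D3:**
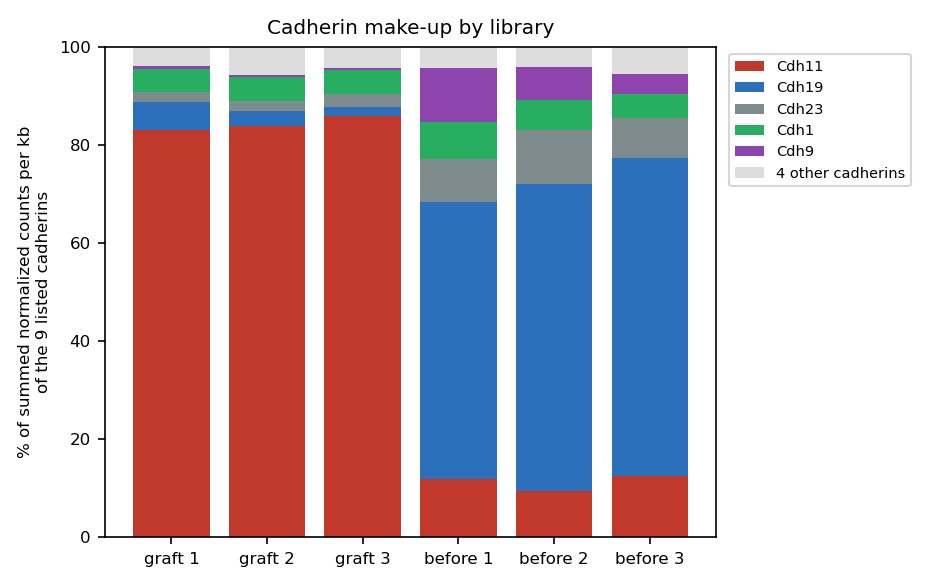
Share of the summed normalized counts per kilobase of the 9 listed cadherins, as stacked bars, 1 bar per library, grafts left and libraries before grafting right. Cdh11 fills 83.1% to 86.0% of each graft and Cdh19 56.3% to 64.8% of each library before grafting.

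Other cadherins rose from low levels. Cdh10 and Cdh3 passed the filter on low values only through the grafts, which favours genes that rise. Cdh10, a type II cadherin studied mainly in brain, had 32.1, 90.2 and 68.3 normalized counts in grafts and 1.0, 1.0 and 3.0 before grafting (5 reads in all), 4.56 ± 0.51 on the log2 scale (adjusted p = 0.000361). Cdh3, the P-cadherin of epithelia (chr8:106510891-106557297), had 26.1, 49.5 and 40.6 in grafts and 3.9, 5.1 and 6.9 before grafting (log2 fold change 2.64 ± 0.39, adjusted p = 0.00173). Its neighbour Cdh1, the E-cadherin of epithelia (chr8:106603351-106670246), had 51.2, 83.4 and 89.0 in grafts and 38.5, 34.4 and 29.5 before grafting (log2 fold change 1.07 ± 0.29, adjusted p = 0.0387). Both genes were higher in every graft, but the call of Cdh1 rested on all libraries except graft replicate 1. Without any other library its adjusted p reached up to 0.147, and without graft replicate 1 it was 0.0115. The call was also lost under each of the 4 other scalings.

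Cdh9, a brain type II cadherin, fell to 6.0, 4.8 and 4.9 normalized counts in grafts, against 44.4, 29.4 and 19.7 before grafting (log2 fold change -2.29 ± 0.40, adjusted p = 0.00442). It passed the filter on low values only through the libraries before grafting, which favours genes that fall. Cdh23, known from the tip links of inner ear hair cells, had 87.4, 127.0 and 166.2 in grafts and 172.6, 234.0 and 190.8 before grafting; the groups did not overlap, and the change of -0.68 did not pass (adjusted p = 0.152; 0.0058 with ribosomal protein genes set to no change). Cdh4 and Cdh26 were below the filter. Cdh4, the R-cadherin, had 1.0, 1.9 and 1.0 normalized counts in grafts and 24.7, 8.1 and 14.8 before grafting. Cdh26 had 2 reads in all grafts and 21 before grafting, a ratio of 10.6 lower in grafts with a 95% exact (Clopper-Pearson) interval of 2.58 to 93.0, and without graft replicate 2, which held both reads, at least 2.33-fold lower. Such intervals cover counting error only. Cdh2, Cdh5 and Cdh13, the N-, VE- and T-cadherins, are outside the table and not analysed here.

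The listed genes of 3 transcription factors that repress cadherin and junction genes all rose, against 41.2% higher among all listed genes tested. Listed genes had been picked by their difference. Snai1 had 1233, 1442 and 1530 normalized counts in grafts, against 60.1, 54.7 and 48.2 before grafting (log2 fold change 4.66 ± 0.15, adjusted p = 1.14e-06). Twist2 (log2 fold change 1.53 ± 0.37, adjusted p = 0.0225) and Zeb2 (1.04 ± 0.10, adjusted p = 0.000126) were also higher in every graft. The other 3 factors of that list are outside the table and not analysed here. The part of these factors in the cadherin results was not tested.

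Clustered protocadherins changed in both directions. They are cadherin-like proteins best known for giving neurons a cell identity, and are encoded in tandem arrays on chromosome 18, where the genes of the gamma array share their last exons. Of 11 tested, 5 were higher, 1 was lower and 5 were not called, with a median log2 fold change of 0.99; 41.2% of all listed genes tested were higher. Among all 16 protocadherins tested, 6 were higher and 3 lower as deposited; with ribosomal protein genes set to no change, each of the 6 calls was lost and 5 genes were lower. Under the other 3 scalings there were 4 higher and 5 lower. Without graft replicate 2 the count of higher protocadherins was 1, without replicate 1 or 2 before grafting or graft replicate 3 it was 3, and without graft replicate 1 it was 9. The median log2 fold change of the 16 was 0.77, between 0.74 and 0.92 without each library in turn, and 0.03 with ribosomal protein genes set to no change.

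Pcdhga3 had 45.2, 71.8 and 75.2 normalized counts in grafts and 15.8, 25.3 and 14.8 before grafting (log2 fold change 1.73 ± 0.34, adjusted p = 0.00795). Pcdhgb6 had 137.6, 169.7 and 163.2 in grafts and 76.9, 85.1 and 94.4 before grafting (0.87 ± 0.19, adjusted p = 0.013). In the beta array, where each gene is a single exon of its own, Pcdhb20 had 88.4, 82.4 and 85.1 in grafts and 50.3, 23.3 and 29.5 before grafting (1.36 ± 0.31, adjusted p = 0.0176). The groups were apart for each of these genes. Pcdhb5 (1.19 ± 0.26, adjusted p = 0.0151) and Pcdhb17 (0.67 ± 0.17, adjusted p = 0.032; -0.07 with ribosomal protein genes set to no change) were also higher in every graft. Pcdhb19, Pcdhgb1, Pcdhgb7 and Pcdhgc5 lay higher in every graft with log2 fold changes of 1.10, 0.99, 0.81 and 1.07 and did not pass (adjusted p = 0.0543, 0.0782, 0.121 and 0.0621). Calls were lost for Pcdhb17 without graft replicate 2 or 3 or replicate 1 or 2 before grafting (adjusted p up to 0.119), and for Pcdhb20 and Pcdhb5 without graft replicate 2 or 3 or replicate 2 or 3 before grafting (up to 0.0768 and 0.0642). Pcdhgb6 lost its call without graft replicate 2 or replicate 1 before grafting (up to 0.0596), while Pcdhga3 kept its call at up to 0.0391. Pcdhb17 also lost its call under each of the 4 other scalings (0.0768 to 1). Without graft replicate 1, Pcdhb19, Pcdhgb1 and Pcdhgc5 passed (adjusted p = 0.0393, 0.033 and 0.0348), as did Pcdhb19 without replicate 3 and Pcdhgc5 without replicate 2 before grafting (0.0321 and 0.0478).

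Of the 3 listed C-type genes of the gamma array, Pcdhgc3 was called lower, and Pcdhgc4 and Pcdhgc5 were not called and lay on opposite sides of 0. Pcdhgc3 was the most abundant listed clustered protocadherin per kilobase in both groups. It fell to 412.8, 476.2 and 451.1 normalized counts in grafts, against 687.3, 707.1 and 570.5 before grafting (log2 fold change -0.55 ± 0.12, adjusted p = 0.017). Its call was lost without replicate 1 or 2 before grafting or graft replicate 3 (adjusted p up to 0.0715). Pcdhgc4 had 17.1, 20.4 and 18.8 in grafts and 34.5, 47.6 and 33.4 before grafting, a change of -0.99 that did not pass (adjusted p = 0.0593) but did under each of the 4 other scalings (0.00401 to 0.0362). In the 7 listed gamma genes, 37.9% to 66.9% of the exonic bases overlap other annotated genes, at least 25 for each. Overlap on the same strand covers 37.9% to 54.6%. Genes on the other strand add to it for Pcdhgc3 (66.9% in all, 38.5% on the same strand) and Pcdhgb7 (61.3% and 45.0%). How shared reads were counted is not stated in these sources. Each gamma value is thus uncertain, as are those of the beta genes, which are close paralogues.

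**Figure D4:**
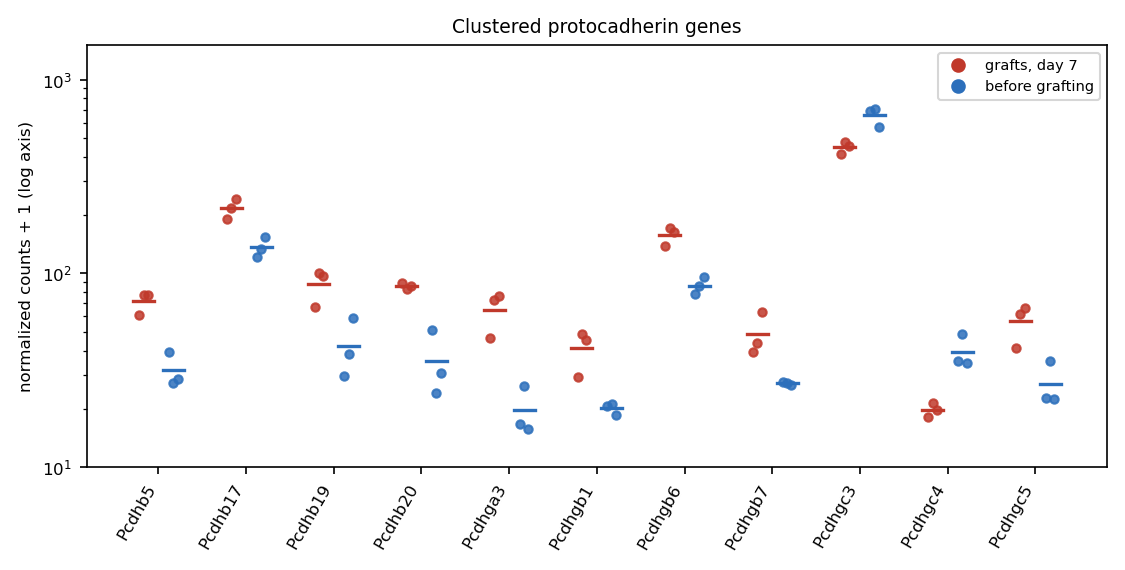
Normalized counts plus 1 on a log axis for the 11 listed clustered protocadherins, 1 point per library and a bar at the mean of 3 libraries. Grafts lie above in 9 genes and below in Pcdhgc3 and Pcdhgc4; with ribosomal protein genes set to no change, Pcdhb17 would turn to -0.07 on the log2 scale.

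Protocadherins outside the arrays went both ways. Pcdh15 and Pcdh20 passed the filter on low values only through the libraries before grafting, which favours genes that fall. Pcdh15, the partner of Cdh23 in tip links, had 0, 2.9 and 0 normalized counts in grafts (3 reads in all) and 182.4, 71.9 and 154.4 before grafting. The ratio was 139 lower in grafts (adjusted p = 0.000195), with a 95% exact interval of 47.1 to 675, and without graft replicate 2, the only graft with reads, it was at least 45.6-fold lower. Pcdh20 fell to 19.1, 37.8 and 7.9 normalized counts in grafts, against 68.0, 106.4 and 65.9 before grafting (log2 fold change -2.05 ± 0.52, adjusted p = 0.0298). Its call was lost without graft replicate 1 or any 1 library before grafting, at an adjusted p of up to 0.12. Pcdh7 had 646.8, 975.6 and 861.6 in grafts and 476.3, 431.6 and 589.2 before grafting (0.72 ± 0.18, adjusted p = 0.027). It lost its call under each of the 4 other scalings (0.0502 to 1), turned to -0.02 with ribosomal protein genes set to no change, and its adjusted p reached 0.0989 without 1 of graft replicates 2 and 3 or replicates 1 and 2 before grafting. An antisense gene covers 21.1% of its exonic bases. Pcdh1 and Pcdh17 did not pass: Pcdh1, a protocadherin of airway and endothelial cells, overlapped between the groups (1865, 1477 and 999.1 in grafts, 883.5, 1180 and 835.1 before; log2 fold change 0.55, or -0.19 with ribosomal protein genes set to no change). Its adjusted p was 0.226, and 0.0268 without graft replicate 3. Pcdh17 had 190.8, 210.4 and 199.8 in grafts and 297.8, 245.2 and 379.7 before (-0.59, adjusted p = 0.0669, and 0.0265 without replicate 2 before grafting; 0.00133 to 0.0413 under the 4 other scalings). Pcdh10, below the filter, had 40 reads in grafts and 2 before grafting, a ratio of 19.9 higher in grafts with a 95% exact interval of 5.15 to 169.7, or at least 4.48-fold without replicate 2 before grafting.

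Desmosome genes fell throughout. All 7 tested were lower in grafts and all 8 listed lay below every library before grafting in all 3 grafts. Of those tested, Dsc2, Dsc3 and Dsg2 passed the filter on low values only through the libraries before grafting, which favours genes that fall. Jup, Pkp2, Pkp3 and Pkp4 passed it in both groups. The median log2 fold change was -2.12, and the 7 kept their calls under each of the 4 other scalings. All 8 listed genes together summed to 1463, 1204 and 989 normalized counts in grafts and 4887, 5375 and 5139 before grafting. In listed genes 39.2% of those tested were lower and 49.1% had all grafts below.

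Among the desmosomal cadherins, Dsc3, a desmocollin of stratified epithelia, had 6.0, 0 and 0 normalized counts in grafts and 418.1, 193.5 and 292.1 before grafting (log2 fold change -7.23 ± 0.76, adjusted p = 0.000268). Without graft replicate 1, the only graft with reads, it was at least 103-fold lower. Dsc2, the widely expressed desmocollin, had 2.0, 5.8 and 1.0 in grafts and 80.9, 33.4 and 51.1 before grafting (-3.94 ± 0.55, adjusted p = 0.00131). Dsg2, its widely expressed desmoglein partner, had 0, 14.5 and 10.9 in grafts and 154.8, 100.3 and 183.9 before grafting (-4.65 ± 0.96, adjusted p = 0.0115). The listed desmosomal cadherins were thus near 0 in grafts and measurable in every library before grafting. The call of Dsg2 was lost without replicate 1 or 3 before grafting (adjusted p = 0.0522 and 0.0573), and its change was -3.39 without graft replicate 1 (adjusted p = 0.000256) and -5.37 without graft replicate 2.

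Of the plaque genes, Jup, Pkp2, Pkp3 and Pkp4 had reads in every graft and Pkp1 had none. Jup, plakoglobin (chr11:100368958-100397763), which also works in adherens junctions and whose promoter is printed above, had 702.0, 526.6 and 394.7 normalized counts in grafts, against 2226, 2415 and 2221 before grafting. Its means were 541 ± 154 in grafts and 2288 ± 110.5 before grafting (SD, n = 3 each; log2 fold change -2.12 ± 0.19, adjusted p = 0.000121). Pkp4, a plakophilin relative found at adherens junctions as well (chr2:59160850-59355208), had 649.8, 528.5 and 503.5 in grafts and 1619, 2279 and 1985 before grafting (-1.80 ± 0.15, adjusted p = 8.33e-05). Per kilobase, Jup and Pkp4 were the most abundant listed desmosome genes in both groups, and the groups did not overlap for either. Pkp2, the plakophilin shared by heart and simple epithelia, had 82.4, 69.8 and 42.5 in grafts and 232.7, 242.1 and 269.5 before grafting (-1.97 ± 0.26, adjusted p = 0.000917). Pkp3 had 21.1, 59.2 and 36.6 in grafts and 133.1, 107.4 and 128.9 before grafting (-1.75 ± 0.36, adjusted p = 0.0106), and missed the threshold without replicate 3 before grafting (adjusted p = 0.056; 0.00297 to 0.0496 without 1 of the others). Pkp1, of stratified epithelia, had 0 reads in grafts and 21.7, 4.1 and 6.9 normalized counts before grafting, at least 3.67-fold lower in grafts and at least 1.85-fold without replicate 1 before grafting. Dsp, the desmoplakin gene that anchors keratins, is outside the table and not analysed here.

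Other epithelial markers moved both ways beside them: of 17 genes 8 were listed, 7 were tested, 2 were higher and 4 lower (summed normalized counts 341 to 592 in grafts, 656 to 939 before grafting). Trp63, the master factor of stratified epithelia, had 21.1, 3.9 and 40.6 normalized counts in grafts and 223.8, 236.0 and 325.6 before grafting. Ehf had 1.0, 0 and 4.0 in grafts and 99.6, 44.6 and 74.8 before. Spint1 was higher, with 107.5, 118.3 and 219.6 in grafts and 29.6, 17.2 and 19.7 before. None of 7 markers of the male tract, which lies beside gonadal fat, was listed. Since listed genes had been picked by their difference, this cannot show whether such tissue was present. The part of epithelial cells in the desmosome result was not tested.

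Tight junction genes fell in most cases. Of 15 tested, 9 were lower, 1 was higher and 5 were not called, against 39.2% lower among all listed genes tested. The median log2 fold change was -0.99. With ribosomal protein genes set to no change it was -1.73, and 12 were lower. Of the 8 listed claudins, 6 were tested, of which 4 were lower and 2 were not called.

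Cldn15, a cation-channel claudin of the intestine (chr5:136966616-136975858), fell to 107.5, 43.6 and 66.3 normalized counts in grafts, against 548.2, 675.7 and 664.0 before grafting. The means were 72.5 ± 32.4 in grafts and 629 ± 70.4 before grafting (SD, n = 3 each; log2 fold change -3.19 ± 0.30, adjusted p = 0.000156). Cldn12, a claudin of gut and kidney epithelium, had 247.1, 286.1 and 290.8 in grafts and 488.1, 613.9 and 536.1 before grafting (-0.99 ± 0.14, adjusted p = 0.00117). Cldn11, the claudin of myelin, had 11, 1.9 and 0 in grafts and 97.6, 56.7 and 41.3 before grafting (-4.24 ± 0.84, adjusted p = 0.00892); the change was -5.18 without graft replicate 1 and -3.39 without graft replicate 3. Cldn19, found in kidney and in Schwann cells, had 26.1, 32.0 and 16.8 in grafts and 58.2, 57.7 and 54.1 before grafting (-1.20 ± 0.30, adjusted p = 0.0295). Its adjusted p was above 0.05 without graft replicate 3 or any 1 library before grafting, at up to 0.103. The groups stood apart in all 4 genes, but Cldn11 passed the filter on low values only through the libraries before grafting.

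Cldn5, the claudin of endothelium, had 983.2, 412.2 and 370.0 normalized counts in grafts and 1498, 1301 and 911.8 before grafting. Graft replicate 1 overlapped the lowest library before grafting, and the change of -1.19 ± 0.37 did not pass (adjusted p = 0.0773). Without that graft it was -1.63 (adjusted p = 0.000926), and the adjusted p reached 0.293 without replicate 2 before grafting. Cldn5 also passed with equal upper quartiles (0.0379) and with ribosomal protein genes set to no change (0.00333). Cldn10 had 37.2, 52.4 and 50.4 in grafts and 30.6, 18.2 and 14.8 before grafting, higher in every graft but not called (1.15, adjusted p = 0.0642, and 0.0337 without replicate 1 before grafting). Cldnd1, a claudin-like membrane gene, lay higher in every graft at 0.37 and was not called (adjusted p = 0.0573, and 0.0303 without graft replicate 1); with ribosomal protein genes set to no change it was -0.37. Below the filter, Cldn24 had 0 reads in grafts and 18 before grafting (at least 2.02-fold lower), Cldnd2 had 3 reads in grafts and 23 before (7.72 lower, 95% exact interval 2.33 to 40.1, and at least 2.57-fold without graft replicate 3), and Cldn7, an epithelial claudin, had 22 reads in grafts and 0 before (at least 2.44-fold higher). Cldn1, Ocln and F11r are outside the table and not analysed here.

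The junctional adhesion molecule gene Jam2, best known from endothelium (chr16:84774123-84825928), fell to 283.2, 326.8 and 511.4 normalized counts in grafts, against 1355, 1656 and 1420 before grafting (log2 fold change -2.02 ± 0.21, adjusted p = 0.000267). Jam3 had 183.8, 217.2 and 202.8 in grafts and 320.5, 258.3 and 280.3 before grafting, a smaller difference that did not pass (-0.50, adjusted p = 0.0591). It passed under each of the 4 other scalings (0.00051 to 0.0352), and an antisense gene covers 36.2% of its exonic bases. Esam, an adhesion molecule of endothelium and platelets, had 1350, 1115 and 1096 in grafts and 1372, 1796 and 1357 before grafting (-0.34, adjusted p = 0.219); it passed with equal upper quartiles (0.029) and with ribosomal protein genes set to no change (0.000271). Of the endothelial members Cldn5, Jam2 and Esam, Jam2 alone passed as deposited. Of 22 blood endothelial markers 14 were listed and tested, with 2 higher and 10 lower (summed normalized counts 23793 to 38979 in grafts, 112839 to 160499 before grafting). Most of that sum before grafting is Fabp4, which adipocytes also express; the other 13 markers summed to 20650 to 26647 in grafts and 28112 to 34395 before. Within the list, Kdr was -1.40 and Tek -1.14 on the log2 scale, while Plvap was 0.38 and Cd93 1.72. Of 7 lymphatic markers, 1 (Pdpn, which fibroblasts also express) was higher and 4 were lower, among them Lyve1 (-3.31) and Prox1 (-3.86), with sums of 4167 to 5920 in grafts and 2971 to 3610 before. Without Pdpn the lymphatic sums were 212 to 519 in grafts and 2836 to 3457 before. The part of endothelial cells in these results was not tested.

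Tjp1, Cgnl1, Marveld1 and Marveld2 were also lower in grafts. Tjp1, the first zonula occludens protein, fell to 1905, 1579 and 1310 normalized counts in grafts, against 2438, 2852 and 2689 before grafting (log2 fold change -0.75 ± 0.14, adjusted p = 0.00727). Cgnl1, paracingulin, which binds both adherens and tight junctions, had 910.9, 966.9 and 832.9 in grafts and 2632, 4414 and 2487 before grafting (-1.77 ± 0.21, adjusted p = 0.000522). Marveld1, a MARVEL-domain membrane gene, had 1373, 1443 and 1522 in grafts and 2535, 2785 and 2319 before grafting (-0.81 ± 0.10, adjusted p = 0.000655). Marveld2, tricellulin, had 21.1, 22.3 and 12.9 in grafts and 76.9, 42.5 and 40.3 before grafting (-1.43 ± 0.37, adjusted p = 0.0314), a call lost without graft replicate 3 or any 1 library before grafting (adjusted p up to 0.129).

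**Figure D5:**
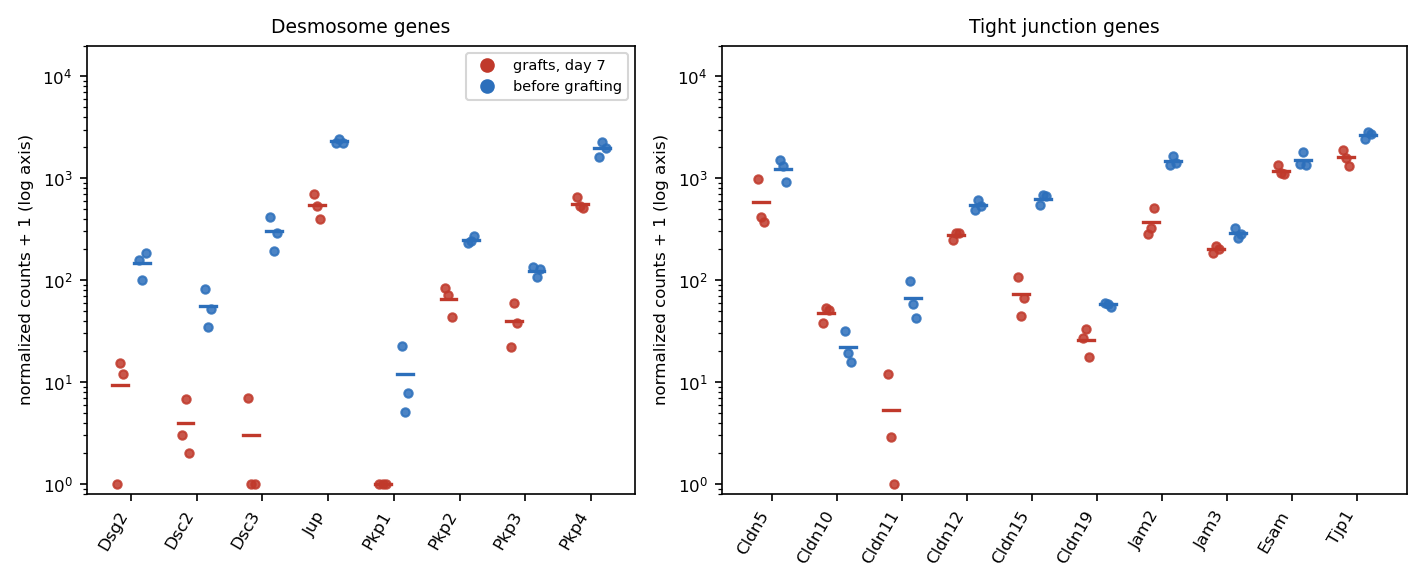
Normalized counts plus 1 on a log axis for the 8 listed desmosome genes (left) and 10 tight junction genes (right), 1 point per library and a bar at the mean of 3 libraries. All 3 grafts lie below all libraries before grafting for each desmosome gene, while Cldn10 lies above among the tight junction genes shown.

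Keratins were few. Of 53 annotated keratins 8 were listed, and 5 were tested, with 3 higher, 1 lower and 1 not called. Among all listed genes tested 41.2% were higher. Krt20 and Krt7 passed the filter on low values only through the grafts, and Krt79 only through the libraries before grafting. That favours genes that differ, while Krt80 and Krt222 passed it in both groups. Without 1 of graft replicates 1 and 2 or replicates 2 and 3 before grafting, 1 keratin was higher, and without graft replicate 3 or replicate 1 before grafting there were 2. Krt80, a type II keratin of many epithelia (chr15:101347444-101370162), had 525.3, 506.2 and 363.0 normalized counts in grafts, against 132.1, 130.7 and 94.4 before grafting. Its means were 465 ± 88.7 in grafts and 119 ± 21.4 before grafting (SD, n = 3 each; log2 fold change 1.95 ± 0.21, adjusted p = 0.000271), and it was the only keratin called higher without each library in turn. It made up 60.9% ± 3.38 of the per-kilobase signal of the listed keratins in grafts and 32.1% ± 6.21 before grafting. Krt222 held the larger mean share before grafting, 36.9% ± 6.16, and 4.66% ± 1.32 in grafts. Listed genes had been picked by their difference, so these shares do not give the make-up of all keratins in the tissue. Krt20, of gut epithelium and the bladder surface, had 53.2, 22.3 and 16.8 in grafts and 7.9, 4.1 and 6.9 before grafting (2.0 ± 0.50, adjusted p = 0.0275). Krt7, a keratin of simple epithelia and mesothelium, had 27.1, 25.2 and 23.7 in grafts and 14.8, 5.1 and 5.9 before grafting (1.6 ± 0.44, adjusted p = 0.0429). Both lay higher in every graft, but each lost its call without any 1 of 5 libraries, with adjusted p up to 0.0989 for Krt20 (called without graft replicate 3) and up to 0.162 for Krt7 (called without replicate 1 before grafting). Krt7 also lost its call under each of the 4 other scalings (0.0577 to 0.43), and Krt20 with ribosomal protein genes set to no change (0.154).

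Krt222, a short keratin-like type I gene, fell to 22.1, 14.5 and 16.8 normalized counts in grafts, against 52.3, 87.1 and 74.8 before grafting (log2 fold change -1.93 ± 0.31, adjusted p = 0.00276). Krt79, of hair follicle ducts, overlapped between groups, at 29.1, 10.7 and 4.9 in grafts and 25.6, 54.7 and 35.4 before grafting (-1.56, adjusted p = 0.165). Without graft replicate 1 it was -2.18 and passed (adjusted p = 0.0163), and the adjusted p reached 0.547 without replicate 2 before grafting. It passed as well with ribosomal protein genes set to no change (0.0193). The other 3 were below the filter. Krt23 had 66 reads in grafts, most of them in replicate 2 (8.0, 44.6 and 11.9 normalized counts), and 1 read before grafting, a ratio of 65.6 with a 95% exact interval of 11.4 to 2629, or at least 7.17-fold without replicate 3 before grafting. Krt86, a hair keratin, had 1.0, 15.5 and 12.9 in grafts and 0 reads before grafting (at least 3.28-fold higher). Krt36, also a hair keratin, had 3 reads in grafts and 27 before grafting, a ratio of 9.06 lower with an interval of 2.79 to 46.7. The simple-epithelial genes Krt8, Krt18 and Krt19 and the basal genes Krt5 and Krt14 are outside the table and not analysed here.

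Markers of mesothelium, which expresses keratins, moved both ways. Of 14 mesothelial markers 11 were listed and 7 tested, with 2 higher and 4 lower (summed normalized counts 1779 to 2349 in grafts, 2452 to 3081 before grafting). Most of these sums was Igfbp6 (not called) and Cd200, with means of 1009 and 641 in grafts and 1582 and 988 before. Of the 11 listed, 6 lay above in all 3 grafts and 4 below. The 4 that were not tested were all among those above. Wt1 had 97.4, 63.0 and 76.2 normalized counts in grafts, and Wt1, Upk3b and Bnc1 had 0 reads before grafting. Msln had 26.1, 18.4 and 7.9 in grafts and 3.0, 5.1 and 2.0 before. The 4 lower markers were Lrrn4 (-3.95 on the log2 scale), Gpm6a (-2.46), Rspo1 (-1.73) and Cd200 (-0.63). Their part in the keratin result was not tested. Among genes of other intermediate filaments and the lamina, 4 of 5 listed were higher, among them Vim, vimentin of mesenchymal cells, with 50311, 43074 and 34954 normalized counts in grafts and 16263, 16219 and 16341 before grafting (log2 fold change 1.38 ± 0.14, adjusted p = 0.000226). The summed normalized counts of the 8 listed keratins were 667, 641 and 450 in grafts and 241, 294 and 225 before grafting.

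Partner genes that the name pattern did not take were mostly lower in grafts. Of 30 such genes 18 were listed and 17 tested, with 3 higher, 11 lower and 3 not called. The background was 39.2% lower among all listed genes tested. Ctnnal1, 1 of the lower genes, is also a member. Afdn, the afadin that nectins bind, fell to 1339, 1023 and 1085 normalized counts in grafts, against 2653, 2652 and 2549 before grafting (log2 fold change -1.20 ± 0.12, adjusted p = 0.000166). Its direction was thus opposite to that of Nectin2 and Nectin4. Ppl, periplakin of the desmosomal plaque, had 31.1, 126.1 and 33.6 in grafts and 612.3, 502.5 and 331.5 before grafting (-3.17 ± 0.52, adjusted p = 0.00315). The polarity and tight junction scaffold genes Mpdz (-1.49), Patj (-1.79), Prkci (-0.84), Pard6g (-1.40) and Magi3 (-0.81) were lower in every graft. Ctnnb1, beta-catenin, was higher at 8520, 8134 and 8223 in grafts, against 5857, 5977 and 5396 before grafting (0.53 ± 0.09, adjusted p = 0.00359). Iqgap1 (1.42), a scaffold that binds E-cadherin and beta-catenin, and Lsr (1.67), an angulin of tricellular tight junctions, were also higher. The relatives of Lsr in the list went the other way. Ildr2 was lower (-1.04, adjusted p = 0.0169), and Ildr1 was not called (-1.99, adjusted p = 0.0994). Marveld2, tricellulin, was lower.

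The 4 genes taken by spelling moved in both directions, with Dscam and Dscaml1 past the filter on low values only through the libraries before grafting. Dscam and Dscaml1, immunoglobulin-type adhesion genes of neurons, fell (log2 fold change -3.04 and -4.39, adjusted p = 0.00382 and 0.00179; Dscaml1 at -3.75 without graft replicate 1). Dscc1, a cohesion factor of DNA replication, and Dscr3, a subunit of the retriever complex, were called higher (1.12 and 0.50, adjusted p = 0.0357 and 0.00916). Dscc1 lost its call without any 1 of the 6 libraries (adjusted p = 0.0596 to 0.115) and under each of the 4 other scalings (0.0618 to 1). Dscr3 lost its call with equal totals (0.114) and equal upper quartiles (0.102), and was -0.25 with ribosomal protein genes set to no change. Across all members, 33 of the 50 called kept their call without each of the 6 libraries, and 30 (11 higher and 19 lower) kept it under all 14 alternatives run.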

How the data were processed

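Total RNA of mouse fat was sequenced, 3 libraries per group. The submitters' processing notes name Bowtie 0.12.2 and HISAT2 2.0.5, with mm8 and mm9 as builds. The coordinates as deposited fit GRCm38: GENCODE M21 holds 12158 of 12163 listed genes, 12036 of them within 1000 bp. The deposited signal of each gene is the authors' read count divided by 1 factor per library, read from the values, since 100% are whole multiples of 1 step (0.969786 to 1.01304, within 0.01 reads). The 6 deposited per-sample tables hold the same values. Gene lengths in base pairs, deposited by the authors among other columns, served only for levels per kilobase. How reads were counted, whether strand was used, and how the values were normalized and the genes filtered is not stated in these sources. Depth outside the listed genes is unknown.

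Log2(value + 1) was fitted with limma 3.58.1 (R 4.3.3, statmod 1.5.0, mean trend, robust), group as the only term, two-sided. Genes needed a value of 10 in 3 libraries. P-values were adjusted by Benjamini and Hochberg over 55536 annotated genes, those not listed or filtered out standing at a p of 1, and the threshold was 0.05. The variance prior came from genes selected on the outcome, which limits every p. The script was tested on simulated data in which most genes did not change. Listed genes had been picked by their difference, so that test gives no error rate for the calls made here. Intervals are exact binomial (95%), and genes at 0 reads were set to a floor of 3 reads in each library. Python 3.11.15, numpy 2.4.6, scipy 1.17.1 and pandas 2.3.3 were used. Alternatives were other pseudocounts, no filter, 4 other scalings, a replicate block and each library left out. Named genes were 39 fixed by name, of which 22 are listed, and up to 4 per family and direction with a group mean of at least 50 and the largest change, 40 in all; further members are given to account for the rest. Results of some members are not reported here. The members and lists were chosen with earlier results of these data known.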

Additional observations from a re-analysis of the deposited data

How the results depend on the processing

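As deposited, 4477 of the listed genes were higher and 4250 lower in grafts, and 24 and 26 of the members. The counts that moved by over 1.5 times were those with ribosomal protein genes set to no change, 1938 listed genes and 11 members higher (5459 and 33 lower), and members higher without graft replicate 2. With 1 library left out, listed genes higher ranged from 3752 to 4130 and lower from 3323 to 4014, and members higher from 14 to 26 and lower from 20 to 27. The direction reversed with ribosomal protein genes set to no change for 8 members, among them Ctnnd1 at -0.43, Nectin3 at -0.07, Dscr3 at -0.25, Pcdh1 at -0.19, Pcdh7 at -0.02, Pcdhb17 at -0.07 and Cldnd1 at -0.37; the cause was not tested. No other alternative reversed a tested member. Pseudocounts of 0.5 and 5 gave 23 and 28 members higher, with 26 and 27 lower, and no filter on low values gave 30 and 31 of 78. Rescaling by median ratios gave 19 and 29. Replicate numbers in the titles did not pair the libraries (correlations of same-numbered deviations -0.157, -0.127 and 0.041, and not every library correlated best with its own number), and with the number as a replicate block 3912 listed genes were higher and 3644 lower, and 19 and 26 members. The block ended the calls of Dscc1, Cdh1, Krt7, Pcdhb17, Pcdhb5 and Cldn19 (adjusted p 0.0572 to 0.108) and gave one to Cldn5 (0.0166). Count models and a rescaling on recovered reads had been planned and were not run. Depth limits the 12 members below the filter, and outlying libraries cannot be tested with 3 per group.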
